A study of Homo sapiens with 3 samples.

Results

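The genes described here load peptides onto HLA class I molecules and trim those peptides to length. They were picked out by gene name, with earlier results of these data known. They number 9 of the 60605 genes in the deposited table: CALR, CANX, PDIA3, TAPBP, TAPBPL, TAP1, TAP2, ERAP1 and ERAP2. Their RNA was measured by poly(A) RNA sequencing in RCC4, a human line of clear cell renal carcinoma that carried a lentiviral Cas9 vector. The only group was RCC4 kept for 24 h with TNF (25 ng/mL) and IFN-gamma (1000 U/mL), with 3 libraries labelled as biological replicates of 3 flasks each. Untreated cells were not analysed here, so every value is a level in treated cells, or a ratio between genes or libraries, and none is a response to the cytokines. With 1 group there is no test between conditions, and the spread given is that between these 3 libraries of 1 line. These are bulk values, in which fewer cells making a transcript and less of it per cell cannot be told apart.

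Class I molecules show peptides from the cell's own proteins to T cells. The transporter made of TAP1 and TAP2 carries peptides from the cytosol into the endoplasmic reticulum (ER), where ERAP1 and ERAP2 shorten them from the amino end. The new class I heavy chain is first held by calnexin (CANX) and then by calreticulin (CALR) with the oxidoreductase ERp57 (PDIA3), and tapasin (TAPBP) bridges the chain to the transporter while it favours tightly bound peptides. TAPBPL encodes TAPBPR, a relative of tapasin that edits peptides without the transporter. Interferons and NF-kappa-B are known to act on many of these genes, and CALR and CANX are also general chaperones of the secretory pathway.

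The stretches before the starts of these genes fell into groups by short motif. RefSeq promoter windows (GRCh38.p14, 250 bases before to 50 after a start) were found for 8 of the 9 genes, with 1 to 4 windows each, and PDIA3 had none. The core of the interferon-stimulated response element, which interferon regulatory factors and their complexes bind, was searched as GAAANNGAAA on both strands. It was found for 5 of the 8 genes, TAPBP, TAP1, TAP2, ERAP1 and ERAP2, and for 4.38% of all 27305 genes with windows. An NF-kappa-B-type motif, GGGNNNTTCC on both strands, was found for 4 of the 8, TAPBP, TAP1, TAPBPL and CANX, and for 7.83% of all genes. The ER stress response element, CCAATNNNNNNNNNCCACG on both strands, was found for CALR and CANX, and for 0.0916% of all genes (25 genes). The gamma-activated site TTCNNNGAA, which reads the same on both strands, was found only for TAP1 among the 8, and for 9.38% of all genes. Counted by window, the interferon core was in 5 of 15 windows of the 8 genes and in 3.57% of all 35116 windows. The NF-kappa-B-type motif was in 4 of 15 (6.52% of all) and the gamma-activated site in 1 of 15 (7.66%). The ER stress element was in 4 of 15 (0.0769%), where neighbouring CANX windows hold the same match. These matches are descriptions of letters in a window and were not tested as binding sites. The searched motifs did not overlap each other in the sequences printed, apart from the repeated interferon cores in TAPBP and TAP1.

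The 250 bases before the start are shown for TAPBP and TAP1, which carried both an interferon core and an NF-kappa-B-type motif in 1 window, and for CALR, which carried neither. Sequences run 5′ to 3′ on the strand of the gene, and capitals mark the motifs. TAPBP lies at chr6:33314079-33314328 (minus strand), TAP1 at chr6:32853705-32853954 (minus strand) and CALR at chr19:12938359-12938608 (plus strand).
TAPBP: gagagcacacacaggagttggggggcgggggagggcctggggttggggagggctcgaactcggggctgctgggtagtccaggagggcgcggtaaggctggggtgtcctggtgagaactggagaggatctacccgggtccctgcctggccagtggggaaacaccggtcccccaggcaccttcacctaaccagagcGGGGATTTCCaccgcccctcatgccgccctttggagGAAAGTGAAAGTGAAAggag
TAP1: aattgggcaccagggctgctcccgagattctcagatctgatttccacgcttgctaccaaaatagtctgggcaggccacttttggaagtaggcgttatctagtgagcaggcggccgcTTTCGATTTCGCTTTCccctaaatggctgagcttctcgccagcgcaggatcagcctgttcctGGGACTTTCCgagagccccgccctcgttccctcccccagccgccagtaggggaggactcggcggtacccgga
CALR: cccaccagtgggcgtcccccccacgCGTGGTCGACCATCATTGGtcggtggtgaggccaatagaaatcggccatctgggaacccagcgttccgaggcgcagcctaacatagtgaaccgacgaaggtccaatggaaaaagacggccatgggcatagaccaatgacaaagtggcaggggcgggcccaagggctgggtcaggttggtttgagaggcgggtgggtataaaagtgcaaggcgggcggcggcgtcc
In TAPBP the interferon cores, 2 overlapping copies, lay 20 to 5 bases before the start, and the NF-kappa-B-type motif lay 56 to 47 bases before it. In TAP1 the 2 overlapping cores lay on the other strand, 134 to 119 bases before the start, with the NF-kappa-B-type motif 72 to 63 bases before it. In CALR the ER stress element lay on the other strand, 225 to 207 bases before the start.

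For the other genes with an interferon core or an ER stress element, the motif is shown in capitals with its nearest neighbours, since these are the matches that complete both groups. TAP2 lies at chr6:32838778-32838807 (minus strand), ERAP1 at chr5:96807924-96807953 (minus strand), ERAP2 at chr5:96876460-96876489 (plus strand) and CANX at chr5:179698773-179698801 (plus strand).
TAP2: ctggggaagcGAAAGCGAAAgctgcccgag
ERAP1: cgggctccacTTTCACTTTCggtcctgggg
ERAP2: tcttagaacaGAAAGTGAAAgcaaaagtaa
CANX: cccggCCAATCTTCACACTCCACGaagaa
The TAP2 core lay 58 to 49 bases before the start and the ERAP2 core 30 to 21 bases before it. The ERAP1 core lay on the other strand, at bases 3 to 12 after the start. The CANX element lay in windows of 3 neighbouring starts, 151 to 133 bases before the middle one. TAP1, TAP2 and ERAP2 thus share the interferon core with TAPBP and ERAP1, although their deposited values, given next, are 0.

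Reads assigned to genes came to 29199806 in replicate 1, 26264283 in replicate 2 and 33458691 in replicate 3. Levels are given as RPKM, CPM per kilobase of exon, and a gene counted as detected at 1 CPM or more in every library, CPM being the reads of a gene scaled to a common library size by TMM. Detection covered 18.6% of all genes and 51.4% of protein-coding genes. All 6 markers of renal carcinoma epithelium were detected, with a summed level of 1313 to 1842 CPM per library. None of 6 leukocyte markers was detected (summed 0.736 to 1.15 CPM) and none of 4 endothelial markers (0.172 to 0.515 CPM), with PTPRC, CD3E and KDR at 0. Of 5 fibroblast markers COL1A1 was detected, with the list summing to 6.41 to 8.14 CPM and COL1A2 and LUM at 0. Replicate 1 stood apart from replicates 2 and 3 in a way that followed GC content, and its values are set beside the others throughout.

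Of the 9 loading and trimming genes, 6 were detected and 3 were listed at 0 reads in every library. The detected genes were CALR, TAPBP, CANX, PDIA3, TAPBPL and ERAP1, in falling order of mean RPKM. TAP1, TAP2 and ERAP2 were listed at 0. Together the 9 genes took 0.538%, 0.486% and 0.478% of all reads in replicates 1, 2 and 3 (0.501% ± 0.0325, SD, n = 3). CALR alone gave 52.0% ± 1.81 of those reads (SD, n = 3).

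**Figure D1:**
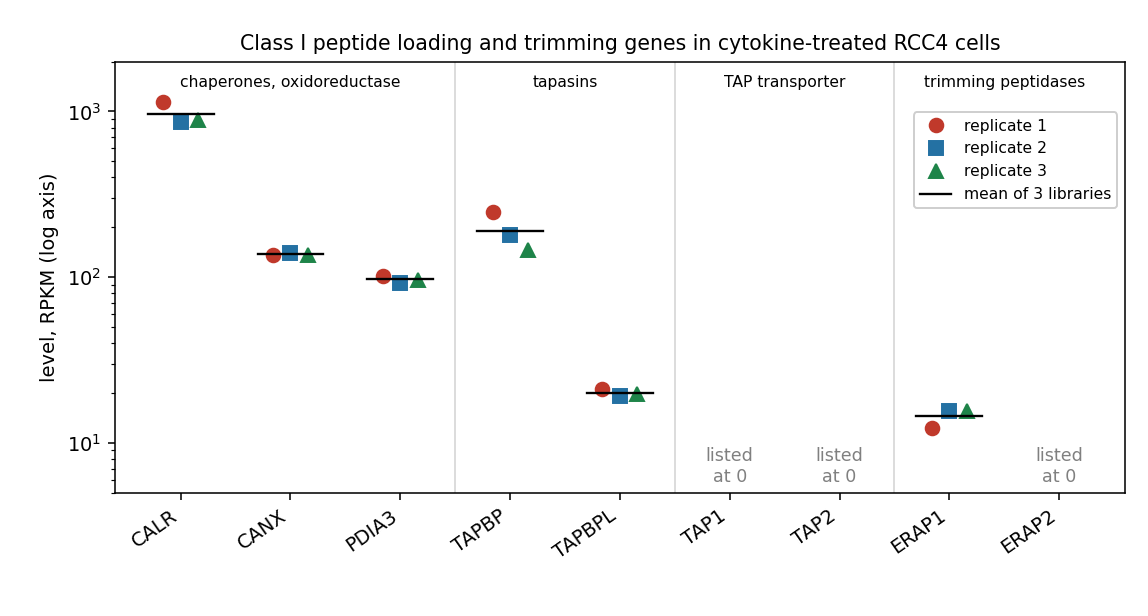
RPKM (log axis) of the 9 genes in replicates 1, 2 and 3, grouped by role, with a bar at the mean of 3 libraries; genes with 0 reads in every library are written as listed at 0. CALR lies near 965 RPKM, TAPBP, CANX and PDIA3 between 97.0 and 191 RPKM, and TAPBPL and ERAP1 at 20.1 and 14.5 RPKM.

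Among the chaperones, CALR was far the most abundant. CALR (ENSG00000179218.15, chromosome 19, 12938578 to 12944489, plus strand, GRCh38) had 83888, 63769 and 84223 reads, or 1138, 865 and 892 RPKM, in replicates 1, 2 and 3. Its mean of 965 ± 151 RPKM (SD, n = 3) gave it rank 24 among 10201 detected protein-coding genes. Replicate 1 was the high library, and replicates 2 and 3 differed by 1.03-fold. An annotated antisense gene at its 3′ end, AC092069.1, with 0 reads in each library, takes in 13.6% of the CALR exon length.

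CANX, the membrane-bound relative of calreticulin, had nearly the same RPKM in each library. CANX (ENSG00000127022.16, chromosome 5, 179678628 to 179730925, plus strand) had 22950, 23681 and 29564 reads, or 136, 140 and 136 RPKM. The mean was 137 ± 2.28 RPKM (SD, n = 3), at rank 236. Its SD on the log2 scale, 0.024, was larger than that of only 1.13% of detected genes. This small spread depended on the scaling: it was 0.11 with total reads only and 0.25 with GC correction, above CALR (0.063), TAPBPL (0.12), PDIA3 (0.18) and TAPBP (0.22) with that correction. CBY3, on the opposite strand, spans 2.41% of its exon length and had 1, 0 and 0 reads.

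PDIA3, whose product forms a disulphide-linked pair with tapasin in the loading complex, came just below. PDIA3 (ENSG00000167004.13, chromosome 15, 43746392 to 43773279, plus strand) had 11704, 10665 and 14264 reads, or 102, 92.6 and 96.7 RPKM. The mean was 97.0 ± 4.54 RPKM (SD, n = 3), at rank 366, with replicate 1 highest by a small margin. Of its exon length 23.5% lies inside spans of opposite-strand genes, ELL3 and AC018512.1 at one end, both with 0 reads, and CATSPER2P1 at the other, with 50, 63 and 86 reads.

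The tapasins differed in level and in how much they varied. TAPBP (ENSG00000231925.12, chromosome 6, 33299694 to 33314387, minus strand) had 34149, 24576 and 25541 reads, or 249, 179 and 145 RPKM, in replicates 1, 2 and 3. All 3 libraries were well apart, with replicate 1 exceeding replicate 2 by 1.39-fold and replicate 3 by 1.71-fold. The mean was 191 ± 52.8 RPKM (SD, n = 3), at rank 145, and the coefficient of variation was 27.6%. Its SD on the log2 scale was 0.39, and 0.22 with GC correction, below ERAP1 (0.29) and CANX (0.25). No exon base of TAPBP lies inside the span of another gene.

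TAPBPL stood about an order of magnitude lower. TAPBPL (ENSG00000139192.12, chromosome 12, 6451690 to 6466517, plus strand) had 1837, 1672 and 2183 reads, or 21.2, 19.3 and 19.7 RPKM. Its mean of 20.1 ± 1.01 RPKM (SD, n = 3) put it at rank 2156, above 78.9% of detected protein-coding genes. VAMP1 on the opposite strand spans 22.9% of its exon length and had 17, 21 and 15 reads, and CD27 on the same strand takes in 0.910% with no read.

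Neither transporter subunit had a read in this table. TAP1 (ENSG00000168394.12, chromosome 6, 32845209 to 32853978, minus strand) was listed at 0 reads in each library. All 4805 bases of its exons lie inside the span of PSMB9, an immunoproteasome subunit gene on the plus strand, which had 13425, 10549 and 13492 reads. No exon base of TAP1 is shared with an exon of PSMB9, and 9.49% of them are shared with exons of PSMB8-AS1, which had 0 reads. TAP2 (ENSG00000204267.16, chromosome 6, 32821833 to 32838780, minus strand) was likewise listed at 0. All 6390 of its exon bases lie inside AL669918.1, a longer gene on the same strand that shares 32.3% of them as exons and had 5, 15 and 38 reads.

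Of the trimming peptidases, ERAP1 was detected and ERAP2 was listed at 0. ERAP1 (ENSG00000164307.13, chromosome 5, 96760810 to 96808100, minus strand) had 2669, 3370 and 4322 reads, or 12.4, 15.6 and 15.6 RPKM, in replicates 1, 2 and 3. Replicate 1 was the low library, and replicates 2 and 3 were level. The mean was 14.5 ± 1.88 RPKM (SD, n = 3), at rank 2870. Of the ERAP1 exon length 62.2% lies inside other spans, most of it inside CAST, the calpastatin gene on the opposite strand, which had 3582, 4096 and 5530 reads. The antisense genes AC008906.1 and AC008906.2 take in 4.19% and 1.51% and had none. Without the strand setting and the way overlaps were counted, reads over this 62.2% of the ERAP1 exon length cannot be assigned with certainty. Exon bases shared with CAST make up 3.76% of those of ERAP1. Over the 3005 exon bases outside other spans the level was 38.4 ± 4.97 RPKM, provided that all counted reads came from those bases, which was not tested. ERAP2 (ENSG00000164308.17, chromosome 5, 96875939 to 96919716, plus strand) has all 7422 exon bases inside AC009126.1, an antisense gene with 29, 35 and 51 reads that shares no exon base with it.

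**Figure D2:**
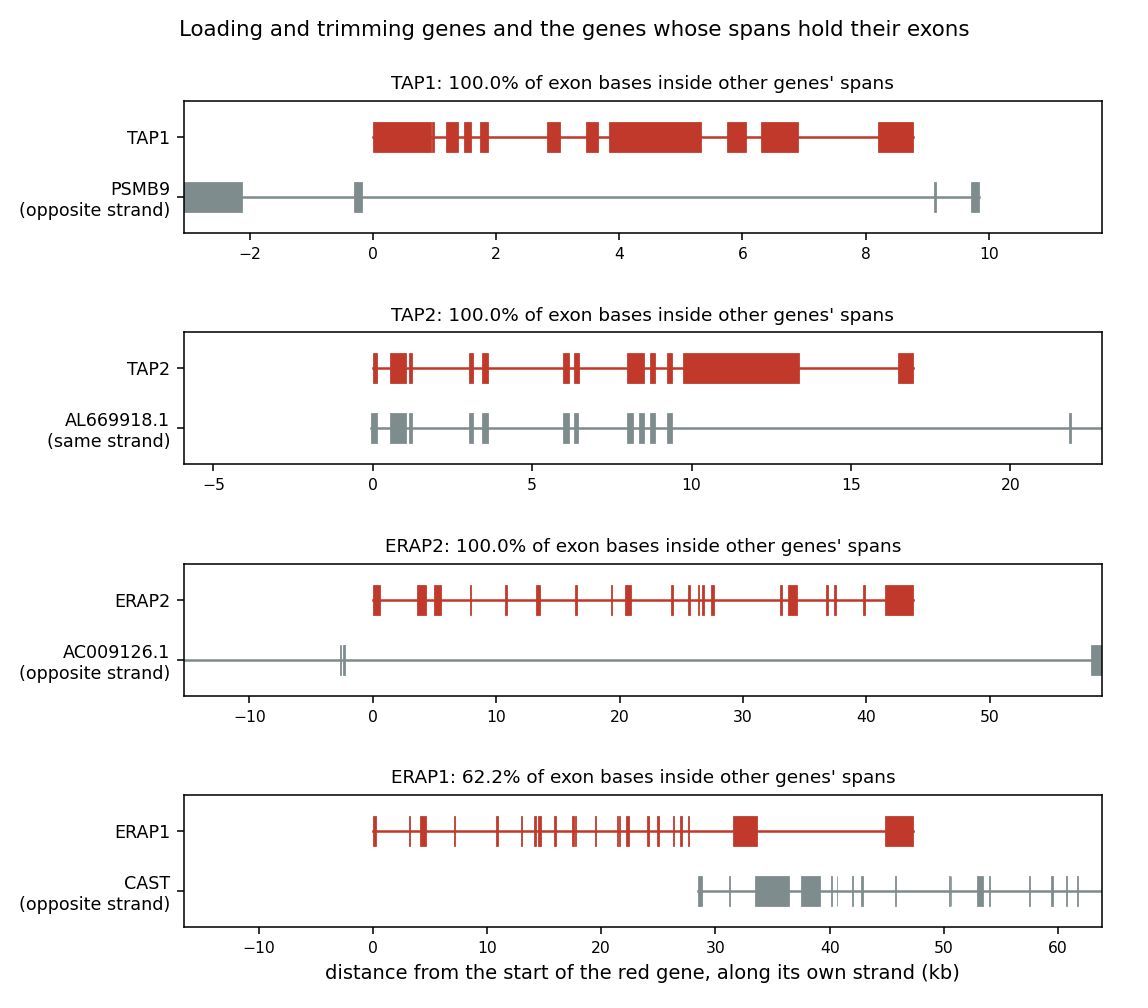
Exons (boxes) and spans (lines) of TAP1, TAP2, ERAP2 and ERAP1 in red, each above the gene whose span holds most of its exon bases, in kilobases from the start of the red gene along its strand (GENCODE 29). All exons of TAP1, TAP2 and ERAP2 fall inside the grey gene, whereas only the 3′ end of ERAP1 does.

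These zeros went with the arrangement of the genes across the table. Of the loading and trimming genes, none of the 3 whose exons lie 80% or more within spans of other genes was detected, against 6 of the 6 with a smaller share. In the whole table, 8.69% of 3177 protein-coding genes at or above that share were detected, against 59.5% of 16684 below it. Of 2113 protein-coding genes wholly inside other spans, as TAP1, TAP2 and ERAP2 are, 88.2% were listed at 0 in every library. The share was 27.2% of 9483 genes with no exon base inside other spans and 28.7% of all protein-coding genes. ERAP2 is 1 of 533 protein-coding genes that lie wholly inside opposite-strand spans and share no exon base with any gene, and 100% of the 533 were listed at 0. A 0 for TAP1, TAP2 or ERAP2 is therefore given only as listed, with no upper limit on their RNA, and the log2 ratios TAP1/TAP2 and ERAP1/ERAP2 were not formed.

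Ratios within a library set the detected genes against each other free of library scaling. A ratio is described as past the replicate spread where all 3 libraries had 1 sign and the mean log2 ratio exceeded 2 SD. The pairs were neighbours in the falling order of mean RPKM, with CALR/CANX and TAPBP/TAPBPL added by role. That order came from these same libraries, so the direction of a neighbour ratio was set by the sorting and is no separate result. The rule was met by 5 of 7 ratios. CALR exceeded TAPBP, the next in order, 5.14-fold (log2 2.36 ± 0.23, SD, n = 3), and its partner lectin CANX 6.98-fold (log2 2.80 ± 0.23). TAPBP exceeded its relative TAPBPL 9.29-fold (log2 3.22 ± 0.33). CANX exceeded PDIA3 1.42-fold (log2 0.50 ± 0.09).

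The ratio of PDIA3 to TAPBPL was nearly the same in each library before GC correction. Its log2 values were 2.26, 2.26 and 2.30 in replicates 1, 2 and 3, a 4.83-fold excess with an SD of 0.021. With GC correction the SD was 0.29, against 0.095 for CANX over PDIA3. The neighbours TAPBP and CANX did not differ beyond their spread, with log2 ratios of 0.88, 0.36 and 0.09 (mean 0.44 ± 0.40). Nor did TAPBPL and ERAP1, with log2 ratios of 0.78, 0.31 and 0.33 (mean 0.47 ± 0.27).

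The exon length used changed 2 of these ratios. With the exon length outside other spans, ERAP1 exceeded TAPBPL 1.45-fold (log2 TAPBPL/ERAP1 -0.54), and CANX over PDIA3 shrank to 1.11-fold (log2 0.15), within the spread. The remaining 5 kept their sign and ran from 1.32-fold for TAPBP over CANX to 7.89-fold for CALR over CANX. With GC correction the ratio of TAPBP to CANX passed the spread (log2 0.44 ± 0.10), and without replicate 1 so did that of TAPBPL to ERAP1 (log2 0.32 ± 0.018).

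**Figure D3:**
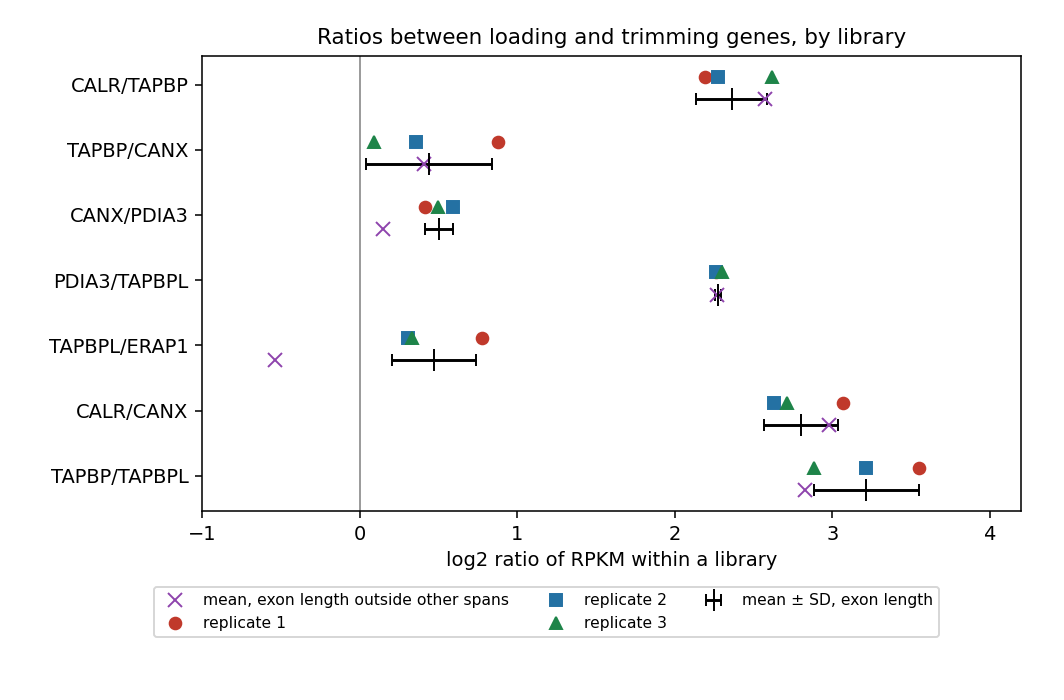
Log2 ratios of RPKM between genes in replicates 1, 2 and 3 (coloured), with the mean ± SD over 3 libraries (black) and the mean computed with exon length outside other genes' spans (purple cross). The PDIA3/TAPBPL points fall together at 2.26 to 2.30, and the cross for TAPBPL/ERAP1 lies below 0, at -0.54.

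Replicate 1 was highest for 4 of the 6 detected genes, CALR, TAPBP, PDIA3 and TAPBPL, and lowest for CANX and ERAP1. Over all detected genes it was highest for 48.5% and lowest for 43%, so the split among the 6 is near that of the table. The log2 difference between replicate 1 and the mean of replicates 2 and 3 was 0.63 for TAPBP, 0.37 for CALR, 0.12 for TAPBPL and 0.10 for PDIA3, where the last 2 turned negative when only total reads were scaled (-0.035 for TAPBPL and -0.054 for PDIA3). It was -0.33 for ERAP1 and -0.026 for CANX, which turned to 0.0070 with the deposited scaling.

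Set beside genes of like GC content, the pattern was different. In 20 bins of GC content the median of the same difference ran from -1.31 in the lowest bin to 0.40 in the highest. ERAP1, with a transcript GC content of 39.7%, lay 0.49 above the median of its bin, and CANX, at 41.6%, lay 0.42 above. PDIA3, at 43.8% GC, and TAPBP, at 57.6%, each lay 0.30 above theirs, and CALR, at 53.9%, lay 0.09 above. TAPBPL has the same GC content as TAPBP, 57.6%, and lay 0.20 below. TAPBP was above the 95th percentile of its bin (0.63 against 0.62), and CANX, PDIA3, ERAP1, CALR and TAPBPL lay between the 5th and the 95th of theirs.

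**Figure D4:**
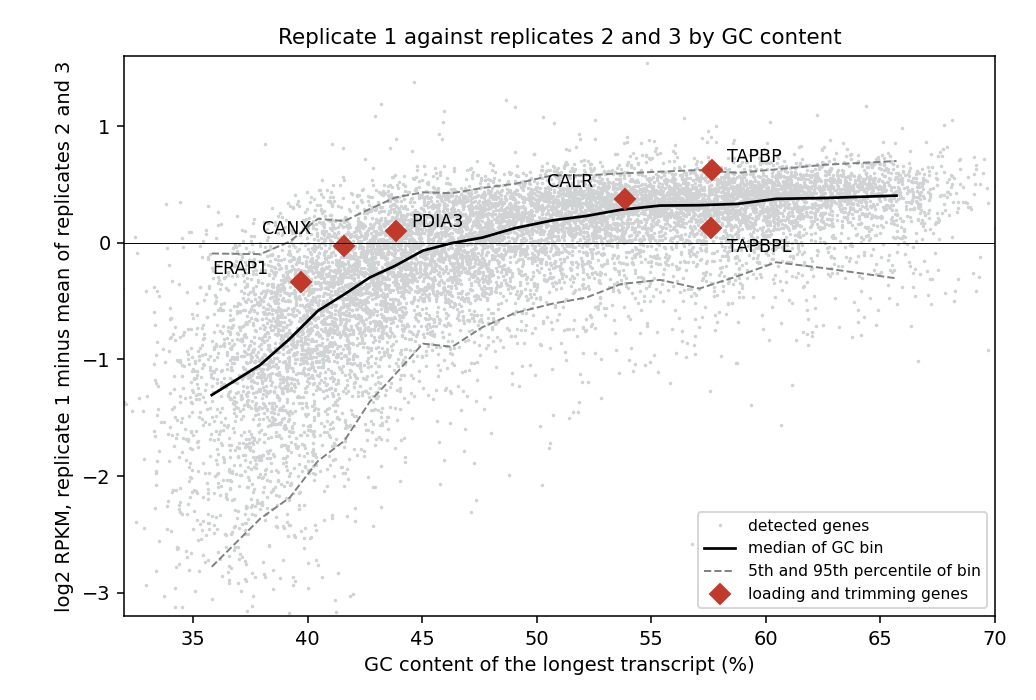
Difference in log2 RPKM between replicate 1 and the mean of replicates 2 and 3 against the GC content (%) of the longest transcript, for detected genes (grey) and the 6 detected loading and trimming genes (red), with bin medians (line), the 5th and 95th percentiles (dashed) and genes beyond the axes not drawn. TAPBP, at 0.63, lies at the upper dashed line, and TAPBPL, of the same GC content, lies below the median at 0.12.

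TAPBP also differed between the 2 libraries that otherwise resembled each other. Its log2 difference between replicate 3 and replicate 2 was -0.30, or 0.812-fold, and only 4.91% of detected genes had a lower one. For CALR, CANX, PDIA3, TAPBPL and ERAP1 this difference lay between -0.037 and 0.063. The median of detected genes was 0.0097, and the 5th and 95th percentiles were -0.30 and 0.34.

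CALR, TAPBP, CANX and PDIA3 sat among the abundant genes of the ER and of class I presentation. TAPBPL (20.1 RPKM) and ERAP1 (14.5 RPKM) lay below the medians of the class I chains, the immunoproteasome list and the general ER chaperones. In 7 further lists of genes of the ER and of class I presentation, 46 of 53 were detected, against 51.4% of all protein-coding genes. The list of class I chains had 6 of 7 detected and a median of 285 RPKM. Over all exon bases HLA-C stood at 636 ± 81.3 RPKM, HLA-B at 470.5 ± 33.5 RPKM and HLA-F at 16.4 ± 0.587 RPKM. Spans of other genes hold 76.9% of the exon length of HLA-C, 62.9% of that of HLA-F and 18.9% of that of HLA-B. As for ERAP1, reads over these parts cannot be assigned with certainty. HLA-G, a class I chain of the placenta, had 2, 4 and 3 reads. The immunoproteasome and its activator had 6 of 6 detected, with a median of 102 RPKM and PSME1 at 186 ± 27.5 RPKM. PSMB8 stood at 153 ± 25.4 RPKM and the assembly chaperone POMP at 49.4 ± 13.9 RPKM. PSMB10 was lowest over all exon bases, at 42.2 ± 4.96 RPKM. Spans of other genes hold 46.8% of the PSMB10 exon length and 0% of that of POMP. Their order with the exon length outside other spans was not computed. For comparison, the median over the 9 loading and trimming genes was 20.1 RPKM, which counts the 3 zeros that are given only as listed. The median log2 RPKM of the 6 detected genes was 6.85, between PDIA3 (97.0 RPKM) and CANX (137 RPKM). The median over all protein-coding genes, zeros included, was 0.482 RPKM.

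General ER chaperones and oxidoreductases had 9 of 10 detected, with a median of 40.1 RPKM. HSPA5 (BiP) led at 249 ± 15.5 RPKM, followed by P4HB, the protein disulphide isomerase, at 214 ± 30.3 RPKM, and CALR stood above all 10 genes of the list in mean RPKM. ERO1A, which passes electrons on to oxygen from the isomerases, stood at 7.84 ± 1.62 RPKM. TXNDC5 was listed at 0, with spans of other genes holding 99.9% of its exon length. HSP90B1 had 2962, 5951 and 9639 reads, far lower in replicate 1, with a GC content of 41.2% close to that of CANX.

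The list for ER glycan trimming and quality control, around the lectins calnexin and calreticulin, had 8 of 8 genes detected, with a median of 16.9 RPKM. Its genes of glucosidase II, PRKCSH at 202 ± 27.9 RPKM and GANAB at 126 ± 12.3 RPKM, stood near TAPBP (191 RPKM) and CANX (137 RPKM). UGGT2, a glucosyltransferase that returns misfolded glycoproteins to the lectins, had 83, 455 and 719 reads and stood at 1.66 ± 1.14 RPKM. EDEM1, which directs misfolded chains to disposal, stood at 3.62 ± 0.572 RPKM.

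Relatives of the loading genes had a median of 0.014 RPKM, which counts 3 genes listed at 0. For 2 of the 6, CALR3 and PDIA3P1, the 0 is given only as listed. Of 6 listed, 2 were detected: LNPEP, the insulin-regulated aminopeptidase related to ERAP1, at 2.21 ± 0.914 RPKM, and ABCB9, a lysosomal peptide transporter related to the TAP subunits, at 0.435 ± 0.0427 RPKM. CLGN, a testis relative of calnexin, had 0 reads in each library with no exon base inside other spans, though 27.2% of such protein-coding genes were also at 0. CALR3 and the pseudogene PDIA3P1 were listed at 0 with spans of other genes holding 99.3% of the exon length of CALR3 and 86.7% of that of PDIA3P1. Reads shared between PDIA3 and its pseudogene cannot be assigned with certainty.

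Cytosolic peptidases that act on peptides before or in place of transport were detected for 7 of 7 genes, with a median of 9.28 RPKM. LAP3, leucine aminopeptidase, stood at 58.5 ± 5.11 RPKM and THOP1, thimet oligopeptidase, at 28.1 ± 5.83 RPKM. In each library both were above TAPBPL and ERAP1 over all exon bases. BLMH stood at 7.57 ± 0.436 RPKM and NPEPPS was lowest, at 4.84 ± 0.332 RPKM.

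Of 9 genes for factors that drive class I transcription, 8 were detected. The NF-kappa-B subunit RELA stood at 50.5 ± 10.8 RPKM and NLRC5, the class I transactivator, at 33.7 ± 5.07 RPKM. RFXAP, a part of the complex through which NLRC5 reaches promoters, was low, with 87, 168 and 191 reads. IRF1, whose product binds interferon cores of the kind printed above, had no read in any library, and 100% of its exon length lies within spans of other genes.

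**Figure D5:**
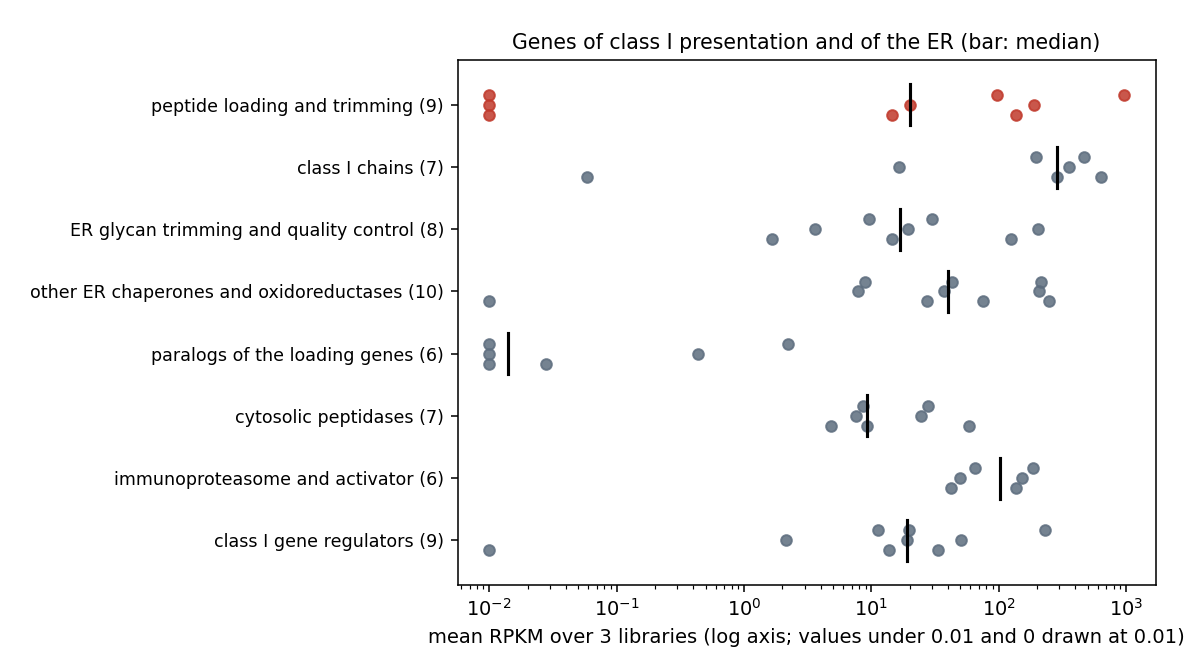
Mean RPKM over 3 libraries (log axis) of each gene in the loading and trimming set (red) and in 7 lists of related genes (grey), with list sizes in brackets and a bar at the median; values under 0.01 are drawn at 0.01. The class I chains have the highest median, 285 RPKM, and the relatives of the loading genes the lowest, with 3 of 6 listed at 0.

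The 5 genes whose profile over the 3 libraries came closest to the mean profile of the 6 detected loading genes were STRADB, GTF2E2, RNF139, RPUSD4 and TMEM258. That mean joins genes that differed in replicate 1, from TAPBP (log2 difference 0.63) to ERAP1 (-0.33). Closeness to the mean profile is therefore not likeness to each of the 6 genes. Likeness was the Euclidean distance between log2 RPKM values centred on each gene's mean, and was 0.0013 to 0.0044 for these 5. With only 3 libraries many genes come close: 334 of 9438 genes (3.54%) lay within 0.05.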

How the data were processed

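Values in the deposited table are a signal: as the values show, the authors divided each library's gene counts by a single size factor. In each library 100% of nonzero values were whole multiples of 1 read (within 0.01 of a read), with factors of 0.946, 0.971 and 1.24, and these whole reads took the place of the counts the design assumed. The submitters' processing notes name hg38, featureCounts 2.0.0, HISAT2 2.1.0, cutadapt 1.18 and FastQC. No source used here gives the annotation release, the strand setting or how overlaps were counted. More genes had 2 reads than 1 (1621 against 269 in replicate 1), so reads need not be independent molecules.

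Gene identifiers without version were matched to GENCODE 29 (GRCh38), which matched 96.3% of genes and all 9 loading and trimming genes. It gave exon unions, spans, overlaps and GC content of the longest transcript, and gene names such as AC009126.1, which the deposited table names otherwise. Reads were scaled with TMM (edgeR 4.0.16, R 4.3.3), and DESeq2 1.42.0 gave alternative size factors. RPKM on the log2 scale carried a pseudocount of 0.1, but pair ratios carried none. No test between groups was possible. Read recovery and GC correction were tested on simulated data. The genes, lists and rules were chosen with earlier results of these data known. The rule named all 9 genes, genes whose spans overlap them, the 2 highest and 2 lowest of each list, and the 5 closest profiles. NLRC5, HSP90B1, CALR3 and the markers at 0 were chosen after their values were seen, and some genes that the rule names are not reported here.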

Additional observations from a re-analysis of the deposited data

How the results depend on the processing

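The 6 detected genes had 1672 or more reads in every library, and the number detected stayed at 6 under every detection limit tried and without each replicate. The median log2 level of the 6 genes, 6.85, was 7.06 with the exon length outside other spans and 9.21 without length scaling; other scalings, filters and pseudocounts moved it by less than its spread. The number of genes higher in replicate 1, 4 of 6, was 2 when only total reads were scaled, where the log2 difference of PDIA3 was -0.054 and that of TAPBPL -0.035. CANX turned to 0.0070 with the deposited scaling. With GC correction CANX turned to 0.42, ERAP1 to 0.50 and TAPBPL to -0.20. The log2 ratio TAPBPL/ERAP1 turned to -0.54 with the exon length outside other spans and to -0.85 without length scaling. Without each replicate in turn, 5 or 6 of 7 ratios passed the spread. No paired analysis was possible because the study has 1 group. No result met the criteria for a closer look, which need groups of at least 4 libraries or several groups.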
